A study of Homo sapiens with 6 samples.

Results

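Transcripts of ATF4, of amino acid metabolism and of endoplasmic reticulum (ER) stress were examined in RKO, a human colorectal carcinoma cell line, with and without stable overexpression of the long noncoding RNA LOC101927668. The set was a written list by known roles, chosen with earlier results of these data known, so its shares beside all tested genes are descriptions. Out of 58735 genes in the deposited table, the list held 40. They were ATF4 itself, its partners and targets and genes of the unfolded protein response. Of these, 35 reached an FPKM (fragments on a gene scaled by its length and by library size) of 0.5 or more in 3 or more of the 6 libraries and could be tested, as could 16061 genes in all.

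Control cells (Vector) were labelled as negative control and were sequenced in 3 libraries. Cells carrying the LOC101927668 transcript from a lentiviral plasmid under puromycin selection (LOC_OE) were sequenced in 3 more. Both arms were stable lines of the same parental cell grown without any stress treatment that the sources describe, and the sources do not say whether the libraries of an arm came from separate cultures. P-values therefore measure the spread between these libraries, which may be technical. The libraries held between 15008842 and 18410231 reads on genes. Reads of LOC101927668 itself numbered 231, 270 and 276 in LOC_OE 1, 2 and 3, a mean of 6.51 ± 0.851 FPKM (SD, n = 3), as compared with 1, 1 and 0 in Vector.

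LOC_OE 1 stood apart from the other libraries of its group. Across the tested genes its log2(FPKM + 1) values correlated with those of LOC_OE 2 and LOC_OE 3 at r = 0.967 and 0.962, whereas LOC_OE 2 and 3 correlated at 0.982 and the Vector libraries at 0.982 to 0.983 among themselves. These correlations run across genes and are a description. The sum of FPKM was 360434 in LOC_OE 1, 310012 and 305702 in LOC_OE 2 and 3, and 264150 to 280648 in the Vector libraries. Of 9 colorectal epithelial markers, 5 were below 0.5 FPKM throughout, among them CDH1, which was at 0 in every library. KRT18 stood at 67.5 FPKM in LOC_OE 1, 25.3 and 25.1 in LOC_OE 2 and 3, and 18.1 to 19.8 in Vector. KRT8 went the other way, with 9.02 FPKM in LOC_OE 1, 13.3 and 13.7 in LOC_OE 2 and 3, and 11.7 to 11.9 in Vector. EPCAM and CDX2 were highest in LOC_OE 1, at 7.49 and 5.56 FPKM, against 4.76 to 5.69 and 3.97 to 4.71 in the other libraries. All 17 fibroblast, blood cell and endothelial markers were below 0.5 FPKM in every library. LOC_OE 1 is accordingly shown apart for the tested genes of the set, and the log2 fold changes are also given without it. Its part in them was not tested beyond that.

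As background, several kinases phosphorylate the translation factor eIF2 alpha when amino acids are short or when unfolded proteins build up in the ER. Most translation then slows, while ATF4 mRNA is translated better, and ATF4, a bZIP transcription factor, dimerises with C/EBP proteins on composite sites near genes for amino acid transporters, amino acid and one-carbon enzymes and stress regulators. Separate ER sensors, IRE1 and ATF6, act through XBP1 splicing and through ER stress elements near chaperone genes. An RNA level does not report any of these translational or splicing steps.

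Promoter sequences from RefSeq on GRCh38.p14, covering 250 bases before to 50 after each start, were found for 34 of the 40 genes. The C/EBP-ATF element, searched as TGATGNAAN on both strands, was present in 9 of the 34 (26.5%) and in 4.45% of the promoters of 27305 genes. The shorter amino acid response element TTGCATCA, which overlaps it, was present in 6 (17.6%) against 1.08%, and its longer form ATTGCATCA in 1, MTHFD1L, against 0.293%. The ER stress element (CCAAT, 9 bases of any kind, then CCACG) occurred in 2, HSPA5 and XBP1 (5.88%), against 0.0916% of all genes. The cAMP response element TGACGTCA occurred in 1, PPP1R15A (2.94%), against 2.25%. The C/EBP-ATF and ER stress elements are the letters through which these 2 branches of the response are usually read. The cAMP response element is neither, and its share was near that of all genes. Sites upstream of the start are shown with the matched element in capitals, each line written 5′ to 3′ along the strand of the gene.
ASNS, C/EBP-ATF element, chr7:97872458-97872486, minus strand: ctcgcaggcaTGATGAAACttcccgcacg
CEBPG, C/EBP-ATF element, chr19:33374061-33374089, plus strand: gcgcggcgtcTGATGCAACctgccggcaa
CHAC1, C/EBP-ATF element, chr15:40953251-40953279, plus strand: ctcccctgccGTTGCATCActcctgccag
HERPUD1, C/EBP-ATF element, chr16:56931955-56931983, plus strand: gacgcggcggGTTGCATCAgcccgtgccc
MTHFD1L, C/EBP-ATF element, chr6:150866347-150866375, plus strand: ccgccggctcTGATGCAATcgcgccgggc
SLC1A5, C/EBP-ATF element, chr19:46784893-46784921, minus strand: aggaagtggcTGATGCAAGctgtccaggg
HSPA5, ER stress element, chr9:125241386-125241414, minus strand: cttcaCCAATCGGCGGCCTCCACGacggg
XBP1, ER stress element, chr22:28800598-28800626, minus strand: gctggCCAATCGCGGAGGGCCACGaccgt
PPP1R15A, cAMP response element, chr19:48872353-48872380, plus strand: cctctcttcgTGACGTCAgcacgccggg
CHAC1 and HERPUD1 carried the C/EBP-ATF element in the reverse direction relative to the gene. In SLC1A4, SLC3A2 and SLC7A1 the element touched or followed the start, and the MTHFD1L element, upstream of the RefSeq start used here, followed another start of that gene. The genes were listed for their known roles in the ATF4 and ER stress responses, so motif shares above those of all promoters may follow from that choice. A match of letters is not evidence that a factor was bound in these cells.

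LOC_OE libraries held more RNA of ATF4 and of the amino acid transporter SLC7A5 than Vector libraries. The same was true of the 3 tested enzymes listed under mitochondrial one-carbon metabolism, while RNA of the ER co-chaperone DNAJB9 was lower. Among the 35 tested genes, 6 were higher in LOC_OE (SLC7A5, SHMT2, ATF4, ATF5, MTHFD2 and MTHFD1L) and 1 was lower (DNAJB9), at a Benjamini-Hochberg adjusted p under 0.05 over all 16061 genes and a fold change of at least 1.5 in limma on log2(FPKM + 1). Of all tested genes, 4.63% were called higher and 5.58% lower by this rule. The median log2 fold change, here the difference in mean log2(FPKM + 1) as LOC_OE minus Vector, was 0.35 over the 35 genes and 0.019 over all tested genes. At the adjusted p alone, 11 of the 35 were higher and 1 was lower, against 10.7% and 9.74% of all genes. In these bulk samples a change in the number of expressing cells and a change in RNA per cell cannot be told apart.

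The heat map of the 35 genes by library showed that this summary mixed unlike libraries. Relative to the Vector mean, the median of the 35 genes was −0.11 in LOC_OE 1, 0.53 in LOC_OE 2 and 0.46 in LOC_OE 3 on the log2(FPKM + 1) scale, whereas the median of all tested genes was 0.032, 0.013 and 0.011. LOC_OE 1 was below both LOC_OE 2 and LOC_OE 3 for 31 of the 35 genes (88.6%) and for 39.4% of all tested genes. In 11 of the 35 genes (31.4%) LOC_OE 2 and 3 lay above every Vector library while LOC_OE 1 lay below every Vector library, a pattern that 4.71% of all tested genes had. These 11 were DDIT3, TRIB3, CEBPG, ASNS, PCK2, CHAC1, SESN2, SLC7A1, SLC1A4, SLC6A9 and SEL1L.

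**Figure D1:**
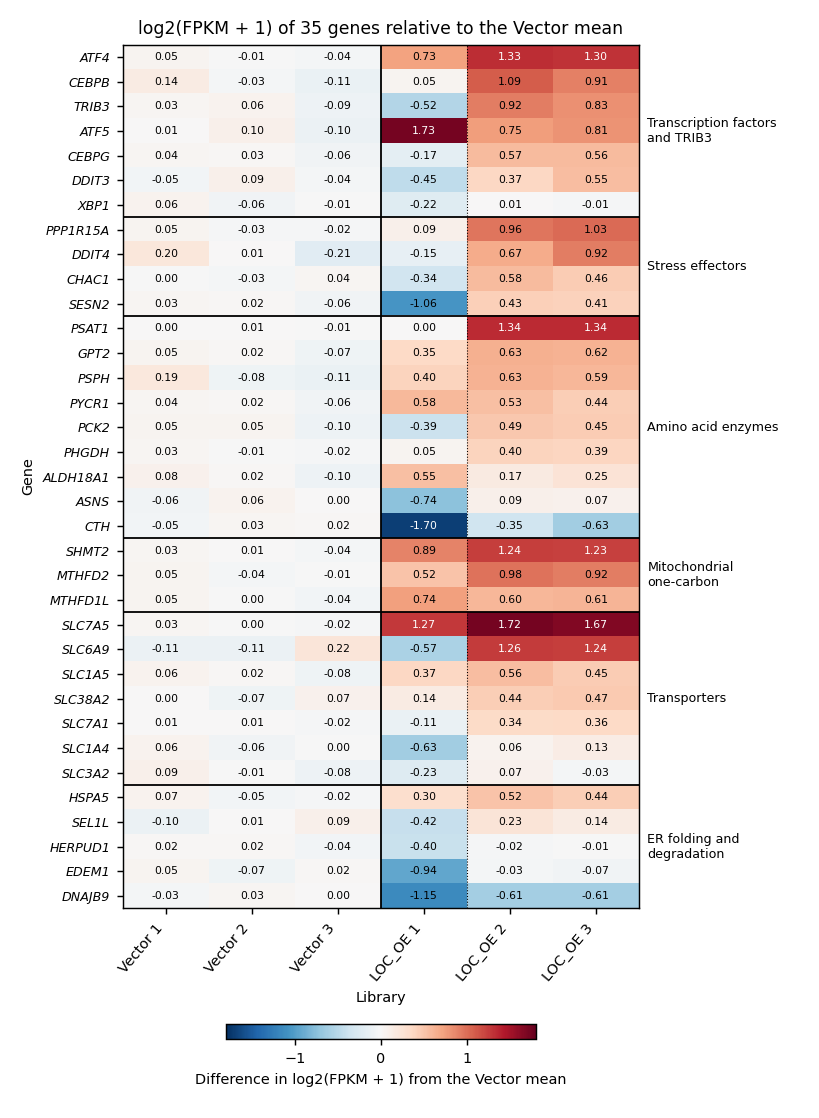
Difference in log2(FPKM + 1) from the Vector mean for the 35 tested genes (rows, grouped by role) in each of the 6 libraries (columns), with the value printed in each cell and a dotted line between LOC_OE 1 and the other LOC_OE libraries. LOC_OE 2 and 3 are alike in nearly every row, while LOC_OE 1 shares the high values of the one-carbon genes and SLC7A5 and is below Vector for TRIB3, SESN2, CTH and EDEM1.

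Without LOC_OE 1, 14 of the 35 genes were higher and 1 was lower, against 4.56% and 5.84% of all tested genes, and the median log2 fold change was 0.49 against 0.011. No call was lost, and 8 were gained, namely TRIB3, CEBPB, PSAT1, PSPH, GPT2, SLC6A9, DDIT4 and PPP1R15A. At the adjusted p alone, 25 of the 35 genes were higher and 2 were lower without that library, against 19.4% and 16.1% of all genes. All 3 LOC_OE libraries were above every Vector library for 15 of the 35 genes (42.9%, against 24.4% of all tested genes) and below for 2, CTH and DNAJB9 (5.71%, against 20.9%).

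The level of expression moved with these counts. Among the tested genes, 4957 had a mean FPKM of 10 or more, a limit chosen after the data were seen. Of these, 41.9% had all 3 LOC_OE libraries above every Vector library and 9.30% were called higher. In the set, 28 genes reached that level and 5 of them were called higher. The 42.9% given above was taken over all 35 genes, whatever their level. The pattern of LOC_OE 2 and 3 above and LOC_OE 1 below every Vector library was present in 4.82% of these well-expressed genes, and in 7 of the 28 genes of the set at that level. The median log2 fold change was 0.18 for all 4957 and 0.38 for the 28. Quantile normalization brought these medians to 0.0046 and 0.15, and left 3 of the 6 calls for higher expression (SLC7A5, SHMT2 and ATF5). Rescaling every library to the same sum of FPKM shifted the median of all tested genes to −0.18 and that of the 35 genes to 0.092.

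**Figure D2:**
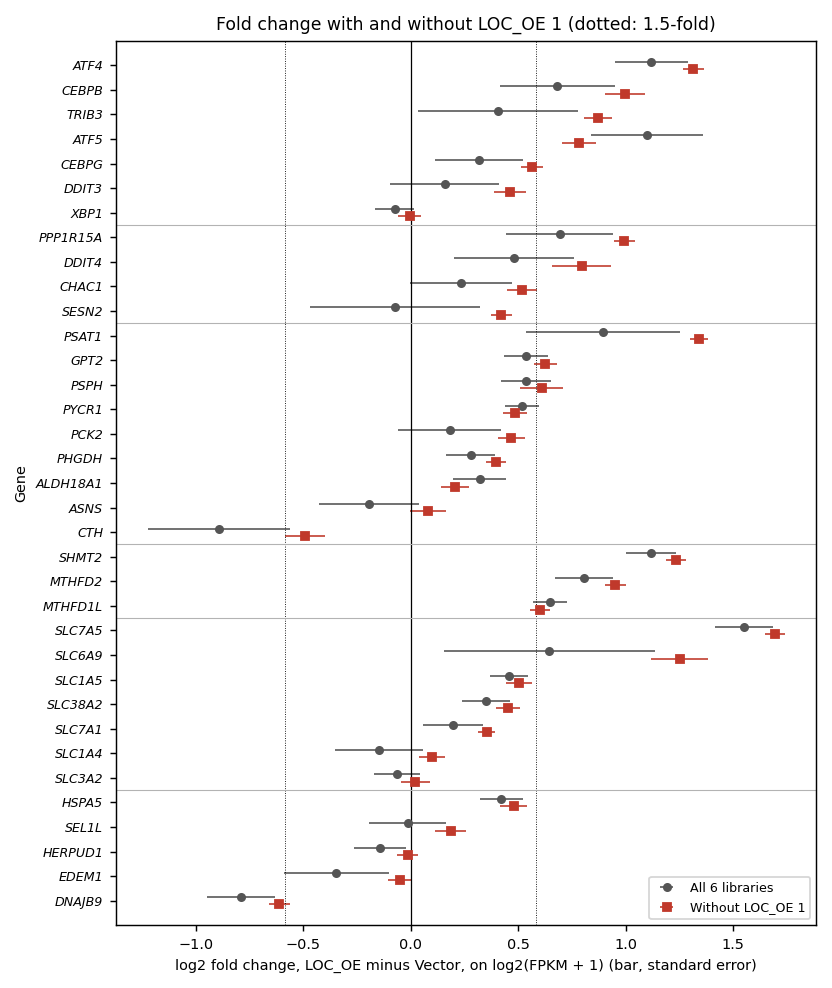
Log2 fold change on the log2(FPKM + 1) scale, LOC_OE minus Vector, for the 35 genes with all 6 libraries (grey circles) and without LOC_OE 1 (red squares); bars are standard errors and dotted lines mark 1.5-fold. Leaving LOC_OE 1 out narrows the error of TRIB3, SESN2, PSAT1 and SLC6A9 and carries TRIB3 from 0.41 to 0.87 and PSAT1 from 0.90 to 1.34.

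Among the transcription factors, ATF4 (ENSG00000128272, chr22:39519695-39522685, GRCh38) had 86.5, 83.2 and 81.7 FPKM in Vector and 140, 212 and 208 FPKM in LOC_OE. All LOC_OE libraries were above all Vector libraries, with LOC_OE 1 the lowest of them. The group means were 83.8 ± 2.45 and 187 ± 40.6 FPKM (SD, n = 3 each), a log2 fold change of 1.12 ± 0.17 (SE, adjusted p = 0.0107), or 1.32 without LOC_OE 1 (adjusted p = 3.72e-04). Against the Vector mean, ATF4 was 1.67-fold higher in LOC_OE 1 and 2.51-fold higher in LOC_OE 2 and 3 together. The call was lost when any 1 Vector library was left out (adjusted p up to 0.0622) and under quantile normalization (log2 fold change 0.79, adjusted p = 0.0665).

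ATF5 (ENSG00000169136, chr19:49928702-49933935), a relative of ATF4 under similar translational control, had another order of libraries, with LOC_OE 1 the highest. It had 4.53, 4.89 and 4.13 FPKM in Vector, 17.2 FPKM in LOC_OE 1 and 8.27 and 8.69 FPKM in LOC_OE 2 and 3. The groups did not overlap, and LOC_OE 1 was well above the others of its group. The log2 fold change was 1.10 ± 0.26 (SE, adjusted p = 0.0320) with all libraries and 0.78 (adjusted p = 0.00181) without LOC_OE 1, and the call was lost without any 1 Vector library (adjusted p up to 0.109). Exons of NUP62 on the opposite strand covered 21.2% of the ATF5 exons, and NUP62 itself had means of 16.9 and 23.7 FPKM, so shared reads cannot be told apart, since no source gives the strand.

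DDIT3 (ENSG00000175197, chr12:57516588-57521737) encodes CHOP, the factor tied to cell death under lasting ER stress. Its FPKM was 28.5, 31.6 and 28.8 in Vector, 21.4 in LOC_OE 1 and 38.7 and 43.8 in LOC_OE 2 and 3. LOC_OE 1 was thus the lowest of all libraries and the other LOC_OE libraries were the highest. The log2 fold change was 0.16 ± 0.25 (SE, adjusted p = 0.689), turned to −0.050 under quantile normalization and to −0.094 with the same sum of FPKM, and was 0.46 (adjusted p = 0.00699) without LOC_OE 1, below 1.5-fold. MARS, on the opposite strand, shared 27.2% of the DDIT3 exons and had means of 27.5 and 40.3 FPKM.

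TRIB3, a pseudokinase induced by ATF4 and CHOP that feeds back on ATF4, followed the same order as DDIT3. TRIB3 had 33.7, 34.3 and 30.9 FPKM in Vector, 22.7 in LOC_OE 1 and 63.1 and 59.2 in LOC_OE 2 and 3. Its log2 fold change was 0.41 ± 0.37 (SE, adjusted p = 0.471), and 0.87 (adjusted p = 0.00101) without LOC_OE 1.

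CEBPB, a bZIP partner of ATF4, lay above Vector in 2 of the 3 LOC_OE libraries. The gene had 50.9, 45.1 and 42.4 FPKM in Vector, 47.7 in LOC_OE 1, which was within the Vector range, and 98.8 and 87.3 in LOC_OE 2 and 3. In limma the log2 fold change was 0.68 ± 0.27 (SE, adjusted p = 0.118) and 1.00 (adjusted p = 0.00162) without LOC_OE 1. CEBPG, another dimer partner, had 17.0 to 18.3 FPKM in Vector, 15.7 in LOC_OE 1, and 26.9 and 26.8 in LOC_OE 2 and 3, with a log2 fold change of 0.56 without LOC_OE 1 that fell short of 1.5-fold.

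XBP1 (ENSG00000100219, chr22:28794555-28800597), the substrate of IRE1 splicing, gave no such separation in total RNA. It had 23.1, 21.2 and 22.0 FPKM in Vector and 18.9, 22.1 and 21.8 FPKM in LOC_OE, so that only LOC_OE 1 lay outside the Vector range, below it. The log2 fold change was −0.075 ± 0.092 (SE, adjusted p = 0.594) and −0.0045 (adjusted p = 0.958) without LOC_OE 1. Gene-level FPKM does not separate spliced from unspliced XBP1.

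**Figure D3:**
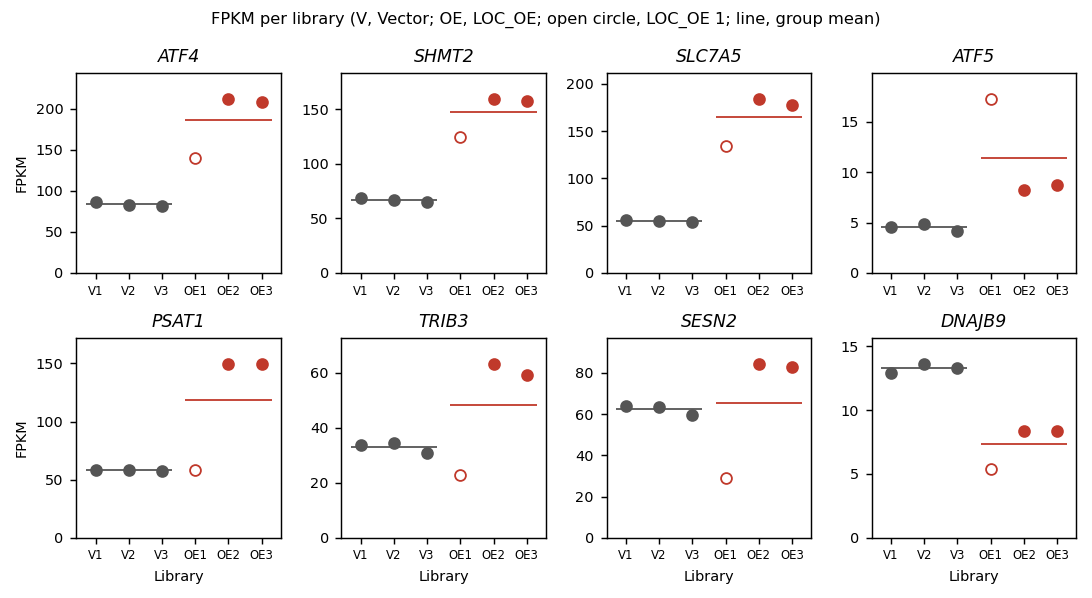
FPKM of 8 genes in each library (grey, Vector; red, LOC_OE; open circle, LOC_OE 1; horizontal line, group mean), with the vertical axis from 0 in each panel. ATF4, SHMT2 and SLC7A5 were above Vector in all LOC_OE libraries, ATF5 was highest in LOC_OE 1, DNAJB9 was below Vector in all of them, and for PSAT1, TRIB3 and SESN2 LOC_OE 1 lay at or below the Vector libraries.

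The 3 tested enzymes listed under mitochondrial one-carbon metabolism, which feeds formate to nucleotide synthesis, were the one role whose members were all called. Their median log2 fold change was 0.81. MTHFD2L, a relative of MTHFD2 placed in another list, was not called. Its log2 fold change in limma was 0.44 (adjusted p = 0.0280), below 1.5-fold. SHMT2 (ENSG00000182199, chr12:57229327-57234935), which takes a carbon from serine, had 68.4, 67.1 and 64.9 FPKM in Vector and 125, 159 and 158 in LOC_OE. The means were 66.8 ± 1.77 and 147 ± 19.5 FPKM (SD, n = 3 each), a log2 fold change of 1.12 ± 0.12 (SE, adjusted p = 0.00531), and 1.23 (adjusted p = 3.72e-04) without LOC_OE 1. The SHMT2 call held whichever single library was left out (adjusted p up to 0.0450).

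MTHFD2 (ENSG00000065911, chr2:74198562-74217565), the dehydrogenase of the next step, had 34.6, 32.4 and 33.1 FPKM in Vector and 48.2, 66.7 and 64.2 in LOC_OE. No LOC_OE library reached down to the Vector range, and LOC_OE 1 was the lowest of the 3. On the log2 scale the fold change was 0.81 ± 0.14 (SE, adjusted p = 0.0131) and 0.95 without LOC_OE 1 (adjusted p = 6.06e-04). The MTHFD2 call was lost without any 1 Vector library (adjusted p up to 0.0714), under quantile normalization (log2 fold change 0.56, adjusted p = 0.105), and with the same sum of FPKM, where the log2 fold change of 0.55 was below 1.5-fold.

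MTHFD1L (ENSG00000120254, chr6:150865549-151101887), which releases formate in the mitochondrion and carries the C/EBP-ATF element printed above, was slightly higher in LOC_OE 1 than in the other LOC_OE libraries. It had 18.9, 18.2 and 17.7 FPKM in Vector and 31.3, 28.1 and 28.4 in LOC_OE. On the log2 scale the fold change was 0.65 ± 0.080 (SE, adjusted p = 0.00705) and 0.60 without LOC_OE 1 (adjusted p = 0.00119). The MTHFD1L call was lost without Vector 2 (adjusted p = 0.0519) and fell below 1.5-fold under quantile normalization (0.47) and with the same sum of FPKM (0.40). ALDH1L2, the remaining enzyme of this role, had 4 to 23 reads per library and was not tested.

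Among the transporters, SLC7A5 (ENSG00000103257, chr16:87830023-87869488), the light chain of the large neutral amino acid carrier LAT1, had the largest log2 fold change of the 35 genes. It had 56.2, 55.0 and 54.1 FPKM in Vector and 134, 184 and 178 in LOC_OE. LOC_OE 1 was 2.43-fold and LOC_OE 2 and 3 together were 3.28-fold above the Vector mean. In limma the log2 fold change was 1.55 ± 0.13 (SE, adjusted p = 0.00344) and 1.70 without LOC_OE 1 (adjusted p = 3.58e-04), and the call held in all 6 fits that left out a library (adjusted p up to 0.0344). A pseudogene, SLC7A5P1, had 2.67 to 6.16 FPKM and may share reads with it. SLC7A5P1 was covered by 23 to 53 reads per library, against 4778 to 13985 for SLC7A5. SLC3A2, the heavy chain to which SLC7A5 binds, had 71.0, 66.1 and 62.7 FPKM in Vector and 56.6, 69.9 and 65.2 in LOC_OE. Its groups overlapped, and the log2 fold change of SLC3A2 was −0.062 (adjusted p = 0.710) with all libraries and 0.021 without LOC_OE 1.

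SLC6A9, the glycine transporter GLYT1, had the widest split between LOC_OE libraries, on 24 to 296 reads. It had 0.775, 0.772 and 1.22 FPKM in Vector, 0.291 in LOC_OE 1 and 3.58 and 3.52 in LOC_OE 2 and 3. This gave a log2 fold change of 0.65 ± 0.49 (SE, adjusted p = 0.386) and 1.25 without LOC_OE 1 (adjusted p = 0.00207). CCDC24, on the opposite strand, shared 7.83% of the SLC6A9 exons and had means of 3.01 FPKM in Vector and 2.4 in LOC_OE. SLC1A5, the glutamine carrier ASCT2, had 68.7 to 75.6 FPKM in Vector and 93.7, 107 and 99.5 in LOC_OE, and its log2 fold change of 0.46 (adjusted p = 0.0195), or 0.50 without LOC_OE 1, was below 1.5-fold. SLC38A2, a sodium-coupled carrier of small neutral amino acids, had 45.0 to 49.8 FPKM in Vector, 52.5 in LOC_OE 1 and 64.5 and 65.9 in LOC_OE 2 and 3 (log2 fold change 0.35, adjusted p = 0.0722, and 0.45 without LOC_OE 1). SLC7A1, for arginine and lysine, and SLC1A4, for alanine, serine and cysteine, were lowest in LOC_OE 1. Their log2 fold changes without that library were 0.35 and 0.098, as compared with 0.20 and −0.15 with all libraries. SLC1A4 stood at 4.74 FPKM there, against 7.54 to 8.28 in Vector and 8.29 and 8.76 in LOC_OE 2 and 3.

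Among the 9 tested enzymes of amino acid metabolism, 5 had all 3 LOC_OE libraries above every Vector library (55.6%). That share was 24.4% among all tested genes and 41.9% among those with a mean FPKM of 10 or more. All 3 were below for 1 enzyme (11.1%, against 20.9% of all tested genes). LOC_OE 2 and 3 were above and LOC_OE 1 below for 2 (22.2%, against 4.71%). PSAT1, the aminotransferase of serine synthesis, had 58.3, 58.6 and 57.9 FPKM in Vector, 58.4 in LOC_OE 1, and 149 and 149 in LOC_OE 2 and 3. LOC_OE 1 was thus within the Vector range for PSAT1, while the other LOC_OE libraries were 2.56-fold above its Vector mean. On the log2 scale the fold change was 0.90 ± 0.36 (SE, adjusted p = 0.124), and 1.34 (adjusted p = 3.72e-04) without LOC_OE 1. PHGDH, the first enzyme of that route, had 15.5 to 16.1 FPKM in Vector, 16.3 in LOC_OE 1 and 21.2 and 20.9 in LOC_OE 2 and 3. Its log2 fold change was 0.28 (adjusted p = 0.132), and 0.40 without LOC_OE 1.

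PSPH, the phosphatase that completes serine synthesis, had 13.0, 10.6 and 10.3 FPKM in Vector and 15.1, 17.9 and 17.5 in LOC_OE. Its groups did not overlap, and the log2 fold change of 0.54 ± 0.12 (SE, adjusted p = 0.0247) was below 1.5-fold with all libraries and was 0.61 (adjusted p = 0.00728) without LOC_OE 1. Its pseudogene PSPHP1 had 7.76, 9.08 and 11.7 FPKM in Vector and 14.4, 12.9 and 9.13 in LOC_OE, so the 2 may share reads. PSPHP1 was covered by 35 to 60 reads per library, against 530 to 792 for PSPH. GPT2, the mitochondrial alanine aminotransferase, had 12.6, 12.3 and 11.5 FPKM in Vector and 15.8, 19.4 and 19.2 in LOC_OE. The log2 fold change of GPT2 was 0.54 ± 0.10 (SE, adjusted p = 0.0183), and 0.63 without LOC_OE 1 (adjusted p = 0.00141).

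The proline enzymes had another order. PYCR1, which makes proline from its precursor, had 41.3 to 44.4 FPKM in Vector and 65.0, 62.9 and 58.8 in LOC_OE, and its log2 fold change of 0.52 (adjusted p = 0.0113), or 0.49 without LOC_OE 1, was below 1.5-fold. ALDH18A1, at the entry to proline synthesis, had 56.9 to 64.4 FPKM in Vector, 89.6 in LOC_OE 1 and 68.6 and 72.6 in LOC_OE 2 and 3 (log2 fold change 0.32, adjusted p = 0.110, and 0.21 without LOC_OE 1). PYCR1, ALDH18A1, MTHFD1L and ATF5 were the 4 of the 35 genes with LOC_OE 1 above both other LOC_OE libraries.

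ASNS, the asparagine synthetase that is a standard ATF4 target, was low by FPKM in these libraries. It had 1.96, 2.21 and 2.09 FPKM in Vector, 0.841 in LOC_OE 1 and 2.28 and 2.25 in LOC_OE 2 and 3. The log2 fold change of ASNS was −0.19 (adjusted p = 0.586) and 0.081 (adjusted p = 0.484) without LOC_OE 1, on 60 to 183 reads per library. A same-strand gene model overlapped 44.6% of its exons. How reads there were counted is not given, and any effect on the level or fold change of ASNS was not tested. PCK2, the mitochondrial phosphoenolpyruvate carboxykinase, had 14.9 FPKM in LOC_OE 1, 18.5 to 20.6 in Vector and 28.2 and 27.5 in LOC_OE 2 and 3, with a log2 fold change of 0.18 that was 0.47 without LOC_OE 1. CTH, the cystathionine lyase that makes cysteine, was below every Vector library in all 3 LOC_OE libraries, with 6.20, 6.60 and 6.57 FPKM in Vector, 1.29 in LOC_OE 1 and 4.83 and 3.83 in LOC_OE 2 and 3. Its log2 fold change was −0.89 (adjusted p = 0.104), and −0.49 (adjusted p = 0.0120) without LOC_OE 1. CBS, which precedes CTH in that route, had 1 read in all, and its near-identical copy CBSL had 3.

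Of the stress effectors, PPP1R15A encodes GADD34, which directs removal of the phosphate from eIF2 alpha. It had 84.4, 80.1 and 80.4 FPKM in Vector, 87.0 in LOC_OE 1 and 160 and 167 in LOC_OE 2 and 3. In limma the log2 fold change was 0.69 ± 0.25 (SE, adjusted p = 0.0955), and 0.99 without LOC_OE 1 (adjusted p = 6.06e-04). DDIT4, or REDD1, an inhibitor of mTORC1, had 8.11, 6.96 and 5.85 FPKM in Vector, 6.13 in LOC_OE 1 and 11.6 and 14.0 in LOC_OE 2 and 3. For DDIT4 the log2 fold change was 0.48 ± 0.28 (SE, adjusted p = 0.265), and 0.80 without LOC_OE 1 (adjusted p = 0.00895).

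SESN2, a leucine-binding inhibitor of mTORC1 that p53 also induces, had the deepest drop in LOC_OE 1 of this role. The values were 63.8, 63.3 and 59.7 FPKM in Vector, 29.2 in LOC_OE 1 and 84.2 and 83.1 in LOC_OE 2 and 3. For SESN2 the difference in mean log2(FPKM + 1) was thus −0.074 (adjusted p = 0.911) with all libraries and 0.42 (adjusted p = 0.00268, below 1.5-fold) without LOC_OE 1. CHAC1, a glutathione-degrading enzyme, had 3.61 to 3.84 FPKM in Vector, 2.73 in LOC_OE 1 and 6.03 and 5.49 in LOC_OE 2 and 3, with a log2 fold change of 0.23 that was 0.52 without LOC_OE 1. NUPR1, a stress-induced chromatin protein, was covered by 15 to 17 reads per Vector library and by 0, 10 and 11 reads in LOC_OE 1, 2 and 3, and STC2, a secreted stress glycoprotein, had 0 reads in every library. Neither was tested, nor was VLDLR, a lipoprotein receptor induced in ER stress, with 0 to 6 reads.

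Of the 5 ER folding and degradation genes, 1 was called lower, against 5.58% of all tested genes. All 3 LOC_OE libraries were above every Vector library for 1, HSPA5 (20.0%, against 24.4%). The median log2 fold change of the 5 genes was −0.14. Their median difference from the Vector mean was −0.42 in LOC_OE 1, −0.020 in LOC_OE 2 and −0.0085 in LOC_OE 3. DNAJB9 (ENSG00000128590, chr7:108569568-108574850), or ERdj4, a co-chaperone of BiP and a target of the IRE1 branch, had 12.9, 13.6 and 13.3 FPKM in Vector and 5.42, 8.35 and 8.32 in LOC_OE. All LOC_OE libraries were below all Vector libraries, LOC_OE 1 most of all. This gave a log2 fold change of −0.79 ± 0.16 (SE, adjusted p = 0.0206) and −0.61 (adjusted p = 0.00119) without LOC_OE 1, and the DNAJB9 call was lost without any 1 Vector library (adjusted p up to 0.0897).

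HSPA5 (ENSG00000044574, chr9:125234853-125241330) encodes BiP, the main ER chaperone, and has the ER stress element printed above. It had 331, 306 and 312 FPKM in Vector and 390, 453 and 430 in LOC_OE. The libraries of the groups did not overlap, and the log2 fold change of 0.42 ± 0.10 (SE, adjusted p = 0.0319) was below 1.5-fold, also without LOC_OE 1 (0.48, adjusted p = 0.00374). Under quantile normalization the HSPA5 log2 fold change was −0.0014 (adjusted p = 0.996), and leaving out any 1 library other than LOC_OE 1 raised its adjusted p above the threshold (up to 0.142).

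HERPUD1, SEL1L and EDEM1 act in the disposal of misfolded ER proteins. HERPUD1 had 13.3 to 13.9 FPKM in Vector, 10.1 in LOC_OE 1 and 13.5 and 13.6 in LOC_OE 2 and 3. EDEM1 had 33.7 to 37.0 FPKM in Vector, 18.1 in LOC_OE 1 and 34.7 and 34.0 in LOC_OE 2 and 3. For both genes LOC_OE 2 and 3 lay within the Vector range and LOC_OE 1 below it, and the log2 fold changes went from −0.14 and −0.35 to −0.014 and −0.050 without LOC_OE 1. SEL1L had 10.4 to 12.0 FPKM in Vector, 8.13 in LOC_OE 1 and 13.3 and 12.5 in LOC_OE 2 and 3, with a log2 fold change of 0.19 (adjusted p = 0.0980) without LOC_OE 1.

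The plot of medians by role and library placed mitochondrial one-carbon enzymes at 0.74, 0.98 and 0.92 above the Vector mean in LOC_OE 1, 2 and 3 on the log2(FPKM + 1) scale. Transcription factors with TRIB3 stood at −0.17, 0.75 and 0.81, and stress effectors at −0.24, 0.62 and 0.69. Amino acid enzymes stood at 0.045, 0.49 and 0.44, and transporters at −0.11, 0.44 and 0.45.

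**Figure D4:**
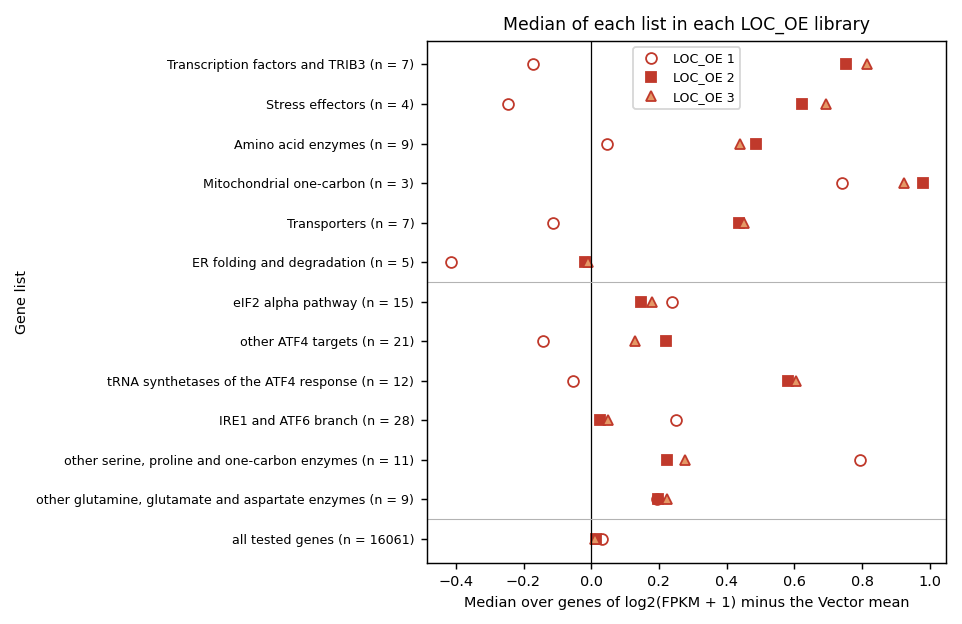
Median over the tested genes of each list of log2(FPKM + 1) minus the Vector mean, for LOC_OE 1 (open circles), LOC_OE 2 (squares) and LOC_OE 3 (triangles); the upper block holds the 6 roles of the set, the middle block 6 other lists and the last row all tested genes. LOC_OE 1 lies left of the other LOC_OE libraries in every role of the set, by least for the mitochondrial one-carbon enzymes, and right of them for the eIF2 alpha pathway, the IRE1 and ATF6 branch and for the other serine, proline and one-carbon enzymes.

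A further 103 genes of the same pathways in 6 lists were read alongside, of which 96 were tested, 12 were called higher and 4 lower, with a median log2 fold change of 0.20. Counts in these lists are to be read against the 4.63% higher and 5.58% lower of all tested genes, and without LOC_OE 1, when 21 of the 96 were higher and 4 lower, against 4.56% and 5.84%. Among 12 tRNA synthetases of the ATF4 response, 2 were higher (IARS, log2 fold change 0.98, and YARS, 0.65). Of the synthetases, 6 had LOC_OE 2 and 3 above and LOC_OE 1 below every Vector library, and 7 were called higher without LOC_OE 1, with medians of −0.055, 0.58 and 0.61 in LOC_OE 1, 2 and 3. Of 21 other ATF4 targets, 1 was higher (XPOT, a tRNA exporter, 0.94) and 2 were lower (SQSTM1, an autophagy receptor, −1.09, and TNFRSF10B, a death receptor, −0.77). Without LOC_OE 1, 6 of those targets were higher and 2 lower.

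Of 15 genes of the eIF2 alpha pathway, 2 were higher, EIF2S3 (0.76) and EIF2B1 (0.59), both parts of the initiation machinery. Without LOC_OE 1 EIF2B1 lost its call (0.46), which left 1 higher gene. The 1 lower gene was EIF2AK3, the ER stress kinase PERK, with 4.09, 4.50 and 4.24 FPKM in Vector and 1.46, 2.48 and 2.50 in LOC_OE (log2 fold change −0.76, adjusted p = 0.0211). The EIF2AK3 call held in 3 of the 6 limma fits that left out a library (adjusted p up to 0.0921). It was lost with no filter on low FPKM (adjusted p = 0.0506). None of 28 genes of the IRE1 and ATF6 branch was called in either direction in limma on log2(FPKM + 1), and 0 were called by limma voom on the recovered reads, with a median log2 fold change of 0.13, or 0.015 without LOC_OE 1. At the adjusted p alone 3 were higher (HSP90B1, HYOU1 and DERL1) and 2 lower (SYVN1 and EDEM2), against the 10.7% and 9.74% of all tested genes given above. At an unadjusted p under 0.05, 10 were higher and 3 lower, against 3111 and 2744 of the 16061 tested genes. Of 11 other serine, proline and one-carbon enzymes, 4 were higher, among them OAT, the ornithine aminotransferase (log2 fold change 1.17), PYCR3 (1.10) and GCSH (0.84), and 4 were higher without LOC_OE 1, where the median of the list went from 0.44 to 0.25. Of 9 other enzymes of glutamine, glutamate and aspartate, 3 were higher, among them GOT2 (log2 fold change 0.66) and GLUD1 (0.64), and 1 was lower, ASS1, the argininosuccinate synthase (−0.92). Without LOC_OE 1 the call of GOT2 was lost (0.46) and that of GOT1 was gained (1.19), and the median of that list went from 0.32 to 0.20.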

How the data were processed

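RNA from 3 Vector and 3 LOC_OE libraries of RKO cells was sequenced by the authors as paired ends on an Illumina NovaSeq after NEBNext Ultra preparation. The authors deposited 1 table of FPKM per gene and library, and FPKM times merged exon length gave whole reads (tolerance 0.05) for 100% of the values. The library sizes recovered from these steps had the ratios of median-of-ratios size factors, so no further scaling was applied. The submitters' processing notes name HISAT2 2.0.4 and StringTie 1.3.0. The counting tool, the annotation, the strand and the test are not given in the sources used here. All 58735 gene identifiers matched GENCODE 29, and 0 columns of values were left unused.

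Expression was fitted with limma 3.58.1 in R 4.3.3 on log2(FPKM + 1) (variance trend on), keeping each gene that reached 0.5 FPKM in 3 or more libraries, and p-values (two-sided) were adjusted by Benjamini-Hochberg over all tested genes. This scale compresses the fold change of weakly expressed genes. Calls needed an adjusted p under 0.05 together with a 1.5-fold difference or more. The 40 genes and the other lists were chosen with earlier results of these data known, so no p-value was adjusted over a list. Values per library are given for genes past both thresholds, for DDIT3, XBP1 and HSPA5, and for genes whose call changed without LOC_OE 1. From each other list the 2 called genes with the largest absolute log2 fold change are named, apart from items not reported here, and any gene copy above a few reads. TNFRSF10B, EIF2B1, GCSH, GOT1, GOT2, GLUD1 and the 5 IRE1 and ATF6 branch genes past the adjusted p were named after their values were seen. Other genes are given by ranges or by library where they complete a role. Motifs were searched in RefSeq promoters of GRCh38.p14 on both strands. Read numbers cover counting error only. Alternatives were another pseudocount, filters, scalings, weights, thresholds, a replicate block, limma voom on the recovered reads, and leaving out each library. Plots were made in Python 3.11.15 with matplotlib 3.10.9.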

Additional observations from a re-analysis of the deposited data

How the results depend on the processing

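The count of the 35 genes called higher (6) was 14 with array weights, which gave LOC_OE 1 the weight 0.104, 3 under quantile normalization, 11 with no fold change threshold, and 2 to 14 when each library was left out. The count called lower (1) was 2 with unadjusted p, 0 at a fold change of at least 2, and 0 to 1 when each library was left out. Over all tested genes the higher count (743) was 935 with array weights, 599 under quantile normalization, 261 with the same sum of FPKM, 126 at a fold change of at least 2, 1712 with no fold change threshold, and 144 to 747 when each library was left out. The lower count (896) was 1120, 826, 1787, 237, 1565 and 227 to 938 in the same order. Leaving out a Vector library ended the calls of ATF4, MTHFD2, ATF5 and DNAJB9 in each case, and of MTHFD1L without Vector 2. With no filter on low FPKM, ATF5 was not called (adjusted p = 0.0727). The median log2 fold change of the 35 genes ran from 0.092 (same sum of FPKM) to 0.52 (array weights) and stayed above 0 in each setting.

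The log2 fold change reversed for DDIT3 (quantile normalization −0.050, same sum of FPKM −0.094, −0.038 to 0.46 when each library was left out), SLC7A1 (−0.036 and −0.057 in the same scalings) and HSPA5 (−0.0014, quantile normalization), and for PCK2 (same sum of FPKM, −0.066). With array weights it reversed for ASNS (0.060), SESN2 (0.40), SLC3A2 (0.062), SLC1A4 (0.071), XBP1 (0.011) and SEL1L (0.20), and with the ratio of mean FPKM for SESN2 (0.074) and SEL1L (0.012). Leaving out each library gave ASNS −0.34 to 0.081, SESN2 −0.33 to 0.42, SLC3A2 −0.13 to 0.021, SLC1A4 −0.28 to 0.098 and SEL1L −0.14 to 0.19, with SEL1L at 0.032 without Vector 3. None of these 10 genes was called with all 6 libraries. The cause was not tested.

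The sources do not say whether the replicate numbers pair the libraries. Deviations of same-numbered libraries correlated at 0.111, −0.034 and 0.117 over 16061 genes. With 3 libraries per arm this cannot settle whether libraries were prepared in pairs. With the replicate block 696 genes were higher and 739 lower, and 6 and 1 of the 35, with no call among them changed. Between 15008842 and 18410231 reads per library limit what can be said of NUPR1, CBS, ALDH1L2, VLDLR and STC2, which were below the filter.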
